A study of Caenorhabditis elegans with 16 samples.

Results

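The 10 genes described here encode the lid of the 19S regulatory particle of the proteasome in *Caenorhabditis elegans*, with both members of the *rpn-6* paralog pair. They were taken by gene name from the deposited count table: *rpn-3*, *rpn-5*, *rpn-6.1*, *rpn-6.2*, *rpn-7*, *rpn-8*, *rpn-9*, *rpn-11*, *rpn-12* and *dss-1*, or 10 of 19122 genes. All 10 were found and all 10 passed the filter on low counts in each of the 6 comparisons. RNA was sequenced from whole animals synchronized at the L4 larval stage, with 4 samples in each of 4 groups, each sample a pool of animals. The other groups than the wild type are transgenic strains that carry *unc-119(ed3) III* and an inserted transgene for SKN-1t, an N-terminally truncated and constitutively active form of the transcription factor SKN-1: *mgTi21* in SKN-1t[NNNN] animals, *mgTi42* in SKN-1t[NDNN] animals and *mgTi41* in SKN-1t[DNDD] animals. The bracketed letters give the residue at each of the 4 N-glycosylation sites that the full-length SKN-1A isoform carries, where N is the original asparagine and D is an aspartate that mimics its editing by the peptide N-glycanase PNG-1. The transgenes are driven by the ubiquitously active *rpl-28* promoter, each form was studied in 1 strain, and the endogenous *skn-1* gene remained. The wild type is the non-transgenic strain N2, which has neither a transgene nor *unc-119(ed3)*, so that these differences cannot be told apart from the effect of SKN-1t in any comparison with it.

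The proteasome degrades proteins marked with ubiquitin. Its catalytic 20S core is capped by the 19S particle, which has a base with the ATPases that unfold substrates and a lid that removes the ubiquitin chain before the substrate enters the core. RPN-11 is the deubiquitinase of the lid and RPN-8 its partner, both with an MPN domain. RPN-3, RPN-5, RPN-6, RPN-7, RPN-9 and RPN-12 are scaffold subunits that share a PCI domain, and DSS-1 is the small subunit known in yeast as Sem1. In *C. elegans*, SKN-1A activates genes of proteasome subunits when proteasome function is impaired, and *rpn-6.1* is the widely used of the RPN-6 genes.

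Reads counted on genes numbered 23806929 to 30457636 in a sample. Expression is given as CPM, reads counted on a gene per 1000000 reads counted after TMM scaling of all 16 libraries, or, where genes are compared with each other, as TPM, which also divides by gene length. Fold changes are from quasi-likelihood fits in edgeR, with p-values adjusted over all genes tested by the method of Benjamini and Hochberg. Transcripts of *skn-1* were at 302 ± 26.9, 283 ± 28.4 and 238 ± 22.4 CPM in SKN-1t[NNNN] animals, SKN-1t[NDNN] animals and SKN-1t[DNDD] animals, against 123 ± 9.03 CPM in the wild type (SD, n = 4 each), and each transgenic sample was above each wild-type sample. Markers of several tissues differed between strains and wild type, and their part in the lid values was not tested. The 2 body wall muscle markers summed to 1890 to 2909 CPM in SKN-1t[NNNN] animals, 1427 to 2570 CPM in SKN-1t[NDNN] animals and 1599 to 2688 CPM in SKN-1t[DNDD] animals, against 1239 to 1643 CPM in the wild type. The 2 hypodermal markers summed to 511 to 764 CPM in SKN-1t[NNNN] animals, 779 to 942 CPM in SKN-1t[NDNN] animals and 543 to 849 CPM in SKN-1t[DNDD] animals, against 189 to 627 CPM in the wild type. Of these *dpy-7* was higher at an adjusted p below 0.05 in each strain (log2 fold changes of 2.74, 2.77 and 2.22), where 20.0%, 18.1% and 13.4% of all genes were. The other, *rol-6*, did not pass in any strain (0.10, 0.72 and 0.43). The 3 neuronal markers summed to 118 to 149 CPM in SKN-1t[NNNN] animals, 145 to 166 CPM in SKN-1t[NDNN] animals and 154 to 199 CPM in SKN-1t[DNDD] animals. The wild type had 131 to 155 CPM. At an adjusted p below 0.05, 2 of 3 were higher in each strain (20.0%, 18.1% and 13.4% of all genes were). The highest was *unc-119* (log2 fold changes of 0.76, 0.79 and 0.50). This gene carries *ed3* in the transgenic strains only, so its values cannot be read as neuronal alone. The 6 yolk genes had median log2 fold changes of -8.002 in SKN-1t[NNNN] animals, -6.07 in SKN-1t[NDNN] animals and -4.55 in SKN-1t[DNDD] animals, with sums of 94.98 to 221 CPM, 109 to 867 CPM and 143 to 3713 CPM, against 4268 to 23814 CPM in the wild type. At an adjusted p below 0.05 6 of 6 were lower in SKN-1t[NNNN] animals (17.1% of all genes were), 6 in SKN-1t[NDNN] animals (14.8%) and 4 in SKN-1t[DNDD] animals (16.4%), or 6 with the replicate number as a block (18.4%). Markers of germ cells and sperm varied widely between samples of 1 group. Over 24 sperm genes the summed expression was 38.5 to 279 CPM in SKN-1t[NNNN] animals, 50.2 to 140 CPM in SKN-1t[NDNN] animals, 87.2 to 346 CPM in SKN-1t[DNDD] animals and 62.5 to 134 CPM in the wild type. The 2 intestinal markers *elt-2* and *ges-1* summed to 71.0 to 91.5 CPM in SKN-1t[NNNN] animals, 72.9 to 90.0 CPM in SKN-1t[NDNN] animals and 74.0 to 91.6 CPM in SKN-1t[DNDD] animals, against 177 to 196 CPM in the wild type. In whole animals, fewer cells of a type and less RNA per cell cannot be told apart. Whether the samples differed in developmental stage was not tested.

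The genes lie on 4 chromosomes of the WBcel235 assembly. *rpn-3* (WBGene00004460, chromosome III, 8447353 to 8449346, plus strand), *rpn-6.1* (WBGene00004462, 6959110 to 6962001, minus strand), *rpn-6.2* (WBGene00010309, 8999817 to 9001999, minus strand) and *dss-1* (WBGene00022492, 1194386 to 1196292, minus strand) are on chromosome III. *rpn-5* (WBGene00004461, 4696418 to 4698427, minus strand), *rpn-9* (WBGene00004465, 11237447 to 11238919, minus strand), *rpn-11* (WBGene00004467, 4043055 to 4044546, minus strand) and *rpn-12* (WBGene00004468, 11653124 to 11654192, plus strand) are on chromosome II. *rpn-7* (WBGene00004463, 9316631 to 9318632, plus strand) is on chromosome IV and *rpn-8* (WBGene00004464, 4175319 to 4177271, plus strand) on chromosome I. *rpn-6.1* and *rpn-6.2* are thus separate loci on the same chromosome and not neighbours. The annotation places *nemt-1* opposite *rpn-7*, *pqn-48* opposite *rpn-11*, the non-coding gene T06D8.12 opposite *rpn-9* and the small nucleolar RNA gene R12E2.17 within *rpn-8*. How the counting treated strand is not given in the sources used here. A share of the reads of *rpn-7*, *rpn-9* and *rpn-11* could therefore belong to their partners on the opposite strand. R12E2.17 is on the same strand as *rpn-8*, so strand could not separate their reads under any setting.

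The deubiquitinase gene *rpn-11* showed the pattern common to most of the lid. It had 143, 155, 144 and 148 CPM in SKN-1t[NNNN] animals, 372, 352, 293 and 337 CPM in SKN-1t[NDNN] animals, and 514, 471, 359 and 394 CPM in SKN-1t[DNDD] replicates 1 to 4, against 173, 192, 145 and 171 CPM in the wild type. Both strains with an aspartate form were above every wild-type and every SKN-1t[NNNN] sample, while SKN-1t[NNNN] overlapped the wild type. Compared to the wild type, *rpn-11* was 2.12-fold higher in SKN-1t[NDNN] animals (log2 fold change 1.09, standard error 0.116, adjusted p = 0.000322) and 2.57-fold higher in SKN-1t[DNDD] animals (1.36, standard error 0.142, adjusted p = 0.000367). In SKN-1t[NNNN] its log2 fold change was -0.085 (standard error 0.0940, adjusted p = 0.513).

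Its partner *rpn-8* had 174, 173, 179 and 192 CPM in SKN-1t[NNNN] animals, 378, 361, 325 and 335 CPM in SKN-1t[NDNN] animals, and 565, 523, 437 and 425 CPM in SKN-1t[DNDD] replicates 1 to 4, against 199, 203, 155 and 190 CPM in the wild type. SKN-1t[DNDD] replicates 1 and 2 were the highest, as for *rpn-11*, and the lowest SKN-1t[DNDD] sample was above the highest SKN-1t[NDNN] sample. *rpn-8* had the largest rise of the lid genes in SKN-1t[DNDD] animals, at 1.39 on the log2 scale (standard error 0.134, adjusted p = 0.000266). In SKN-1t[NDNN] it was 1.00 (standard error 0.110, adjusted p = 0.000368), a 1.99-fold rise that lay just under the 2-fold cutoff, and in SKN-1t[NNNN] it was 0.062 (standard error 0.103, adjusted p = 0.669).

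**Figure D1:**
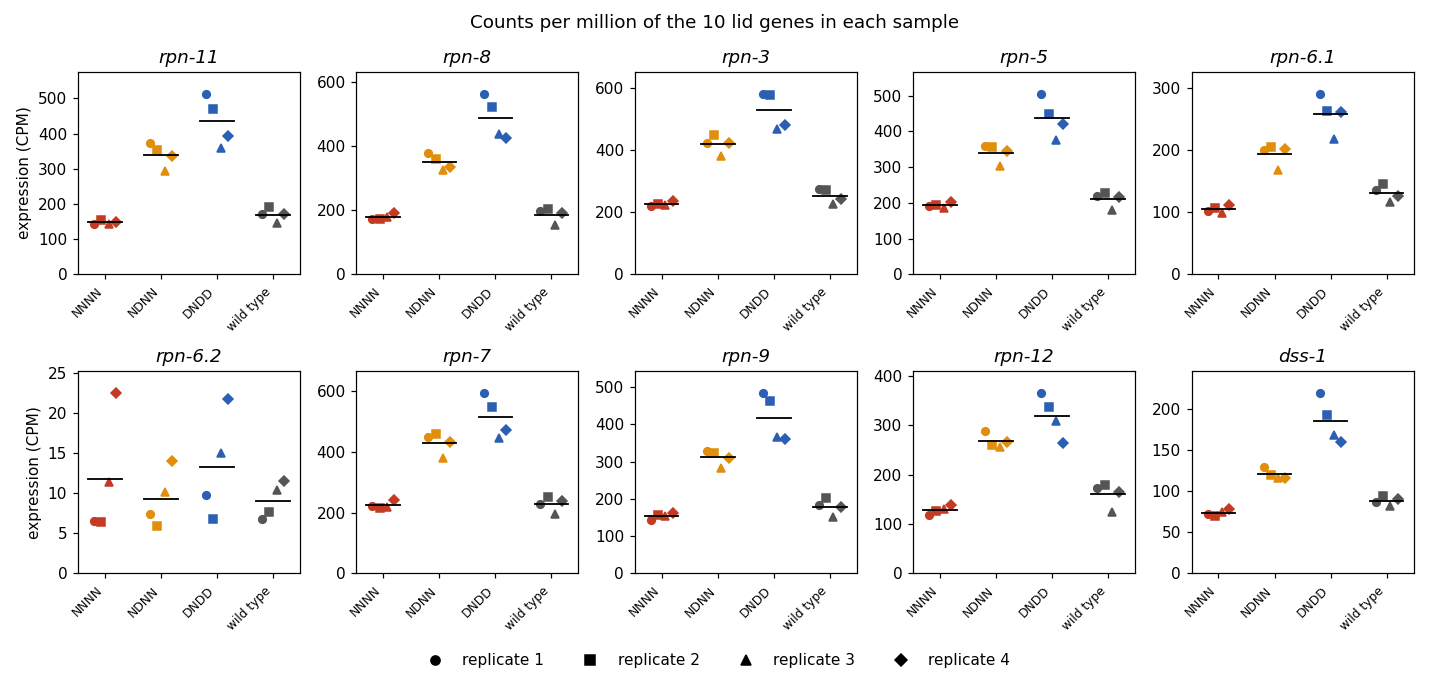
Expression of the 10 lid genes in CPM (vertical axis, from 0, own scale for each gene) in each sample of the SKN-1t[NNNN] animals, SKN-1t[NDNN] animals, SKN-1t[DNDD] animals and wild-type groups. Symbols mark replicates 1 to 4 and bars the mean of a group. Except for *rpn-6.2*, each SKN-1t[NDNN] sample and each SKN-1t[DNDD] sample is above every wild-type sample, and *rpn-6.2* separates by replicate number, with replicates 3 and 4 high in each group. The share of all genes whose samples separate from the wild type in this way was not counted.

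Among the PCI subunits, *rpn-6.1* had 102, 107, 98.8 and 111 CPM in SKN-1t[NNNN] animals, 200, 205, 167 and 201 CPM in SKN-1t[NDNN] animals, and 291, 263, 218 and 262 CPM in SKN-1t[DNDD] replicates 1 to 4, against 136, 145, 116 and 125 CPM in the wild type. The 4 groups did not overlap in this gene. Relative to the wild type it rose by a log2 fold change of 0.66 in SKN-1t[NDNN] animals (standard error 0.107, adjusted p = 0.00194) and 1.00 in SKN-1t[DNDD] animals (standard error 0.117, adjusted p = 0.000586), a 1.99-fold rise. In SKN-1t[NNNN] it was -0.20 (standard error 0.0924, adjusted p = 0.130), although all 4 samples were below all wild-type samples on the CPM scale.

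The other PCI genes differed little in pattern and more in size. Log2 fold changes in SKN-1t[NDNN] were 1.01 for *rpn-7*, 0.89 for *rpn-9*, 0.83 for *rpn-12*, 0.82 for *rpn-3* and 0.78 for *rpn-5*, with standard errors of 0.0992 to 0.123. In SKN-1t[DNDD] they were 1.23 for *rpn-9*, 1.18 for *rpn-7*, 1.07 for *rpn-3*, 1.06 for *rpn-5* and 1.00 for *rpn-12*, with standard errors of 0.115 to 0.146. All 10 of these values passed an adjusted p of 0.05, where 18.1% of all genes were higher in SKN-1t[NDNN] animals and 13.4% in SKN-1t[DNDD] animals. In SKN-1t[NNNN] the same genes lay between -0.20 for *rpn-12* and 0.093 for *rpn-7* and none passed. Of all genes, 20.0% were higher and 17.1% lower there at this level.

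The small subunit gene *dss-1* was the one whose rise differed most between the 2 aspartate forms. It had 71.9, 70.1, 74.6 and 77.9 CPM in SKN-1t[NNNN] animals, 130, 119.3, 116 and 117 CPM in SKN-1t[NDNN] animals, and 220, 192, 168 and 160 CPM in SKN-1t[DNDD] replicates 1 to 4, against 87.2, 94.2, 81.7 and 90.8 CPM in the wild type. In SKN-1t[NDNN] the log2 fold change was 0.53 (standard error 0.0782, adjusted p = 0.00120), the smallest of the 9 genes that rose and below the 1.5-fold cutoff at 1.45-fold. In SKN-1t[DNDD] it was 1.07 (standard error 0.118, adjusted p = 0.000445), near the middle of the lid.

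Counted over the 10 lid genes, 2 were up in SKN-1t[NDNN] at the cutoff of 2-fold and an adjusted p below 0.01, namely *rpn-7* and *rpn-11*, where 6.85% of all genes tested were up. At 1.5-fold and an adjusted p below 0.05 there were 8, against 14.4% of all genes. In SKN-1t[DNDD] animals, 7 of 10 were up at the 2-fold cutoff (3.44% of all genes) and 9 at the 1.5-fold cutoff (11.8% of all genes). The 2 members just under 2-fold there were *rpn-6.1* at 1.99-fold and *rpn-12*, at 0.997 on the log2 scale. In SKN-1t[NNNN] animals, 0 of 10 were up or down at 1.5-fold, where 26.6% of all genes were, and none was down in any strain. Also at an unadjusted p below 0.05, for which the share of all genes was not counted, the edgeR test gave 0 lid genes in SKN-1t[NNNN] animals. The median log2 fold change of the 10 genes was -0.066 in SKN-1t[NNNN] animals, 0.82 in SKN-1t[NDNN] animals and 1.07 in SKN-1t[DNDD] animals, beside medians over all genes tested of 0.14, 0.077 and 0.043 in the same fits.

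The count at 2-fold in SKN-1t[NDNN] rested on genes close to the cutoff. It was 0 without SKN-1t[NDNN] replicate 1, and 1 without SKN-1t[NDNN] replicate 2, without wild-type replicate 2 or without wild-type replicate 3, while the count at 1.5-fold was 8 without any 1 sample. With the replicate number as a block, *rpn-8* in SKN-1t[NDNN] animals and *rpn-12* in SKN-1t[DNDD] animals reached 2-fold (both 1.00 on the log2 scale), which gave counts of 3 and 8. For SKN-1t[NNNN] animals, *rpn-6.1*, *rpn-12* and *dss-1* were lower than in the wild type at an adjusted p below 0.05 in a single fit of all 16 samples (log2 fold changes of -0.31, -0.32 and -0.26), which moved the median of all genes in this comparison to 0.022 from 0.14, and the same 3 genes passed without wild-type replicate 3 (-0.31, -0.36 and -0.24). DESeq2 gave 2 of them, *rpn-6.1* and *dss-1*. None of these values reached 1.5-fold.

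**Figure D2:**
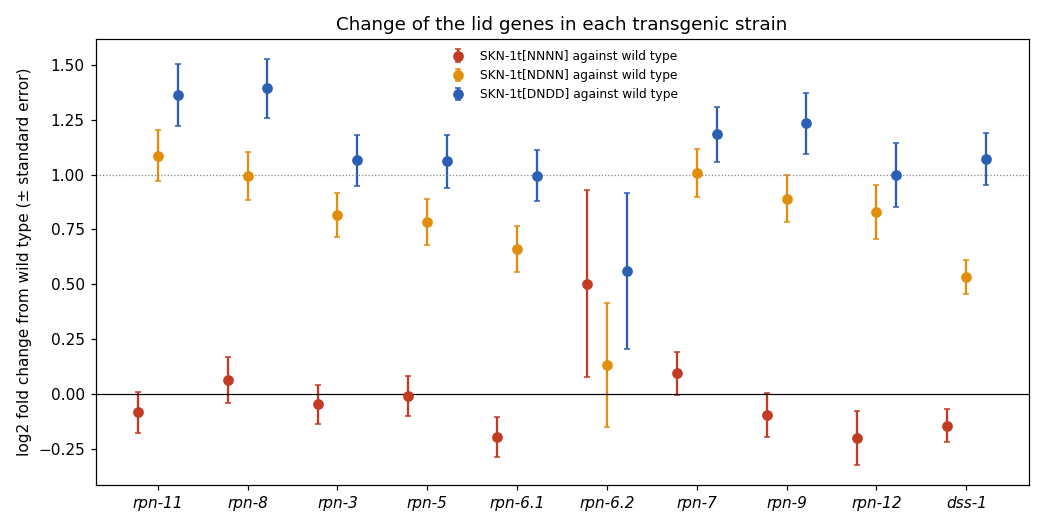
Log2 fold change from the wild type (vertical axis) of each lid gene in SKN-1t[NNNN] animals, SKN-1t[NDNN] animals and SKN-1t[DNDD] animals, as fitted by edgeR, with bars of 1 standard error. The solid line marks no change and the dotted line 2-fold. For 9 genes SKN-1t[NNNN] is near 0, SKN-1t[NDNN] lies between 0.53 and 1.09 and SKN-1t[DNDD] between 1.00 and 1.39, whereas for *rpn-6.2* the bars are wide and the 3 strains overlap.

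To compare the forms of SKN-1t with each other, the strains were tested in one fit of all 16 samples. Compared to SKN-1t[NNNN] animals, 9 of the 10 lid genes were higher in SKN-1t[DNDD] animals, where 7.68% of all genes were higher at an adjusted p below 0.05, and the same 9 were higher in SKN-1t[NDNN] animals, where 0.781% of all genes were. These 2 comparisons share the SKN-1t[NNNN] samples. For SKN-1t[DNDD] the log2 differences of these 9 ran from 1.18 in *rpn-5* to 1.56 in *rpn-11*, and *rpn-6.1* differed by 1.30 (standard error 0.102, adjusted p = 9.45e-07). For SKN-1t[NDNN] they ran from 0.71 in *dss-1* to 1.197 in *rpn-11*, and *rpn-6.1* differed by 0.88 (standard error 0.101, adjusted p = 0.000131). Leaving out any 1 sample kept both counts at 9.

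Between the 2 aspartate forms the lid genes were higher in SKN-1t[DNDD] animals than in SKN-1t[NDNN] animals, with log2 differences of 0.25 to 0.62. The unadjusted p was below 0.05 for 9 of 10, a level at which the share of all genes was not counted. After adjustment 2 passed, where 0.747% of all genes were higher: *dss-1*, with a difference of 0.62 (standard error 0.0928, 95% interval 0.42 to 0.82, adjusted p = 0.00403), and *rpn-8*, with 0.48 (standard error 0.107, 95% interval 0.25 to 0.71, adjusted p = 0.0373). With the replicate number as a block, 7 passed, where 14.8% of all genes were higher: *rpn-3*, *rpn-5*, *rpn-6.1*, *rpn-8*, *rpn-9*, *rpn-11* and *dss-1*. For *rpn-6.1* the difference was 0.42 (95% interval 0.20 to 0.63), with an adjusted p of 0.0530 without and 0.00506 with the block. The call of *rpn-8* without the block was lost when SKN-1t[DNDD] replicate 1 or 2 or any SKN-1t[NDNN] replicate was left out (log2 differences of 0.41 to 0.53), leaving *dss-1* alone, and in a fit of only the 8 samples of both strains neither gene passed.

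Within replicate numbers the order was nearly constant. The log2 difference in *rpn-6.1* between SKN-1t[DNDD] animals and SKN-1t[NDNN] was 0.54, 0.35, 0.38 and 0.38 in replicates 1 to 4, and that in *dss-1* was 0.76, 0.69, 0.54 and 0.45. For *rpn-12* it was 0.34, 0.37, 0.27 and -0.010, so 1 number showed no difference. The level of the lid in SKN-1t[DNDD] itself varied by replicate, with summed CPM of the 10 genes of 3161 to 4131, against 2516 to 2937 in SKN-1t[NDNN] animals, 1390 to 1534 in SKN-1t[NNNN] animals and 1383 to 1770 in the wild type.

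When divided by gene length, the 9 genes other than *rpn-6.2* were within 2.32-fold of each other in SKN-1t[NNNN] animals, 2.65-fold in SKN-1t[NDNN] animals, 2.55-fold in SKN-1t[DNDD] animals and 2.33-fold in the wild type. In the wild type *rpn-12* was highest at 180 ± 24.3 TPM, followed by *dss-1* at 155 ± 5.78, *rpn-11* at 152 ± 11.7, *rpn-8* at 150 ± 15.5, *rpn-3* at 136 ± 12.6, *rpn-5* at 122 ± 9.99, *rpn-7* at 118.8 ± 9.24 and *rpn-9* at 118 ± 9.70 TPM (SD, n = 4 each). The samples of each of these genes overlapped those of its neighbour in the order. *rpn-6.1* stood below them at 77.2 ± 5.50 TPM and *rpn-6.2* at 5.95 ± 1.59 TPM, and neither overlapped the gene above it. *rpn-6.1* was 9th and *rpn-6.2* 10th in each of the 4 groups.

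The top 3 genes overlapped between samples in each group, so that their order is not resolved. In SKN-1t[DNDD] animals the highest means were those of *rpn-8* (446 ± 54.7 TPM) and *rpn-11* (445 ± 68.9 TPM), the MPN pair, and *rpn-12* (406 ± 44.4 TPM). In SKN-1t[NDNN] animals *rpn-11* was at 335 ± 35.0 TPM and *dss-1*, 6th by its mean, at 232 ± 10.02 TPM.

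A measure that does not depend on scaling between libraries is the level of a gene relative to the mean log2 TPM of the 9 genes in the same sample. *dss-1* was at -0.069 ± 0.065 in SKN-1t[NDNN] animals and 0.16 ± 0.054 in SKN-1t[DNDD] animals, against 0.24 ± 0.082 in the wild type (SD, n = 4 each), and no SKN-1t[NDNN] sample reached the lowest sample of the other groups. *rpn-8* was at 0.44 ± 0.034 in SKN-1t[DNDD] animals and 0.35 ± 0.042 in SKN-1t[NDNN] animals, against 0.19 ± 0.036 in the wild type. *rpn-11* was at 0.43 ± 0.059 in SKN-1t[DNDD] animals and 0.46 ± 0.050 in SKN-1t[NDNN] animals, against 0.22 ± 0.030 in the wild type. *rpn-11* in SKN-1t[NNNN] animals, at 0.20 ± 0.064, was near its wild-type place, and *rpn-8*, at 0.33 ± 0.031, was not. *rpn-6.1* took a lower place by its mean in all strains, with -0.89 ± 0.044 in SKN-1t[NNNN] animals, -0.95 ± 0.062 in SKN-1t[NDNN] animals and -0.92 ± 0.110 in SKN-1t[DNDD] animals, against -0.76 ± 0.051 in the wild type. The SKN-1t[DNDD] samples, at -0.98 to -0.75, overlapped those of the wild type, at -0.83 to -0.71. These values describe RNA and were not tested.

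**Figure D3:**
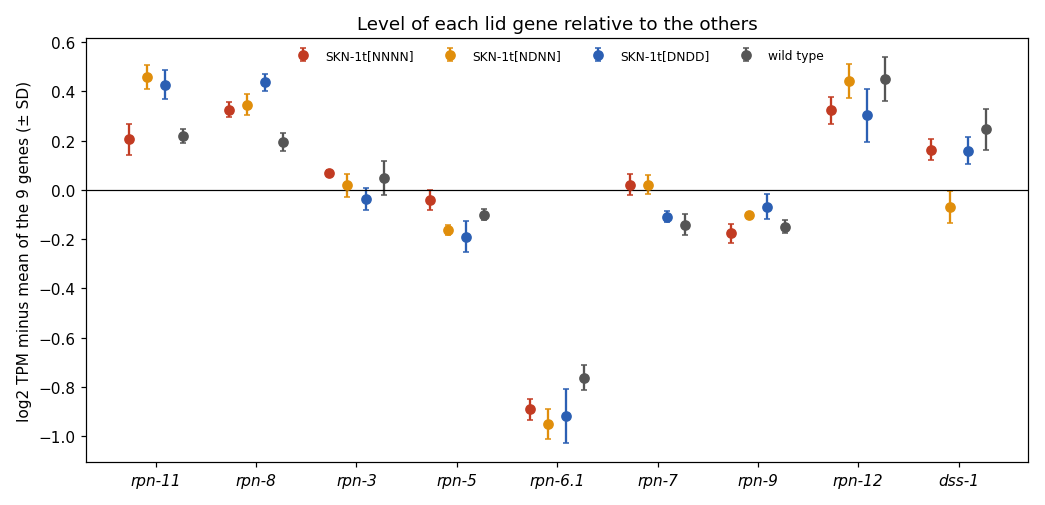
Level of 9 lid genes relative to each other: log2 TPM of a gene minus the mean log2 TPM of the 9 genes in the same sample (vertical axis), as mean and SD of 4 samples in SKN-1t[NNNN] animals, SKN-1t[NDNN] animals, SKN-1t[DNDD] animals and the wild type. *rpn-6.1* is lowest in each group, *rpn-8* and *rpn-11* are higher in SKN-1t[NDNN] animals and SKN-1t[DNDD] animals than in the wild type, and *dss-1* is lower in SKN-1t[NDNN] animals than in the other groups.

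The paralog *rpn-6.2* behaved differently from *rpn-6.1* in level and in spread. It had 6.58, 6.46, 11.4 and 22.5 CPM in SKN-1t[NNNN] animals, 7.46, 5.86, 10.1 and 14.0 CPM in SKN-1t[NDNN] animals, and 9.76, 6.77, 15.02 and 21.7 CPM in SKN-1t[DNDD] replicates 1 to 4, against 6.77, 7.65, 10.4 and 11.5 CPM in the wild type. All groups overlapped, and in each group replicates 3 and 4 were above replicates 1 and 2. Between 163 and 660 reads per sample stood behind these values, and 2736 to 7946 behind those of *rpn-6.1*. Per length, *rpn-6.1* was 7.91 times as high as *rpn-6.2* in SKN-1t[NNNN] animals, 18.8 times in SKN-1t[NDNN] animals and 17.4 times in SKN-1t[DNDD] animals, against 12.97 times in the wild type.

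No comparison called *rpn-6.2*. Relative to the wild type it had a log2 fold change of 0.50 in SKN-1t[NNNN] animals (95% interval -0.47 to 1.47, adjusted p = 0.385), 0.13 in SKN-1t[NDNN] animals (-0.51 to 0.77, adjusted p = 0.770) and 0.56 in SKN-1t[DNDD] animals (-0.25 to 1.37, adjusted p = 0.244). The intervals for SKN-1t[NDNN] animals and SKN-1t[DNDD] contain the fold changes of *rpn-6.1*, 0.66 and 1.00, so these fits did not separate the paralogs. With the replicate block the interval was narrower, -0.26 to 0.45 for SKN-1t[NDNN] animals and 0.0032 to 0.93 for SKN-1t[DNDD] animals, with adjusted p-values of 0.665 and 0.0953. These intervals lay below the fold changes of *rpn-6.1* in the same fits, 0.66 and 0.99, and overlapped its intervals, 0.44 to 0.88 and 0.72 to 1.26. The difference between the paralogs was not itself tested in the fits with the block. Between SKN-1t[DNDD] animals and SKN-1t[NNNN] the log2 difference of *rpn-6.2* was 0.18 (95% interval -0.73 to 1.10), against 1.30 for *rpn-6.1*. With the replicate block the interval of *rpn-6.2* was -0.15 to 0.61, below that of *rpn-6.1*, 1.13 to 1.46. Between SKN-1t[NDNN] animals and SKN-1t[NNNN] animals the block gave -0.61 to 0.16 for *rpn-6.2* and 0.72 to 1.04 for *rpn-6.1*.

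The ratio of *rpn-6.1* to *rpn-6.2* reads gives the contrast within each sample. Its log2 value was 3.95, 4.05, 3.12 and 2.31 in SKN-1t[NNNN] animals, 4.74, 5.13, 4.05 and 3.85 in SKN-1t[NDNN] animals, and 4.90, 5.28, 3.86 and 3.59 in SKN-1t[DNDD] replicates 1 to 4, against 4.33, 4.24, 3.47 and 3.45 in the wild type. The mean was 3.36 ± 0.815 in SKN-1t[NNNN] animals, 4.44 ± 0.598 in SKN-1t[NDNN] animals and 4.41 ± 0.810 in SKN-1t[DNDD] animals, against 3.87 ± 0.478 in the wild type (SD, n = 4 each). The groups overlapped in all 6 comparisons, and relative to the wild type the value differed by -0.51 in SKN-1t[NNNN] animals, 0.57 in SKN-1t[NDNN] animals and 0.53 in SKN-1t[DNDD] animals, with p = 0.343, 0.171 and 0.314 in two-sided exact permutation tests (0.411, 0.343 and 0.411 after adjustment over the 6 comparisons). SKN-1t[DNDD] differed from SKN-1t[NNNN] by 1.05 (exact p = 0.171, adjusted 0.343), and SKN-1t[NDNN] from SKN-1t[NNNN] by 1.09 (exact p = 0.143, adjusted 0.343). SKN-1t[DNDD] animals and SKN-1t[NDNN] differed by -0.037 (exact p = 0.943). The smallest p that 4 against 4 samples allow is 0.0286.

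Compared within replicate numbers, the ratio was lower in SKN-1t[NNNN] animals than in the wild type in 4 of 4 numbers (differences of -1.14 to -0.19), higher in SKN-1t[NDNN] in 4 of 4 (0.40 to 0.89) and higher in SKN-1t[DNDD] in 4 of 4 (0.14 to 1.04). It was also higher in 4 of 4 in SKN-1t[DNDD] animals than in SKN-1t[NNNN] animals (0.74 to 1.28) and in SKN-1t[NDNN] animals than in SKN-1t[NNNN] animals (0.79 to 1.54). An exact sign-flip test of each of these gives p = 0.125, the smallest that 4 pairs allow, so none could pass. SKN-1t[DNDD] was above SKN-1t[NDNN] in 2 of 4. For SKN-1t[NNNN] animals against the wild type the numbers were not found to pair the samples, so there the count within numbers is a description of these samples only.

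**Figure D4:**
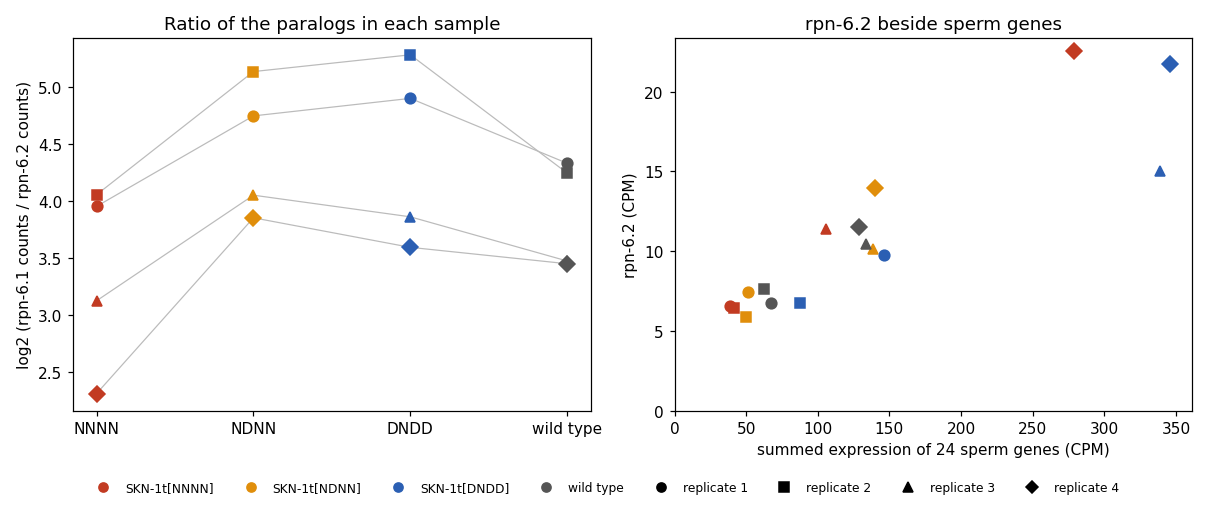
Left, log2 ratio of *rpn-6.1* to *rpn-6.2* reads (vertical axis) in each sample of the SKN-1t[NNNN] animals, SKN-1t[NDNN] animals, SKN-1t[DNDD] animals and wild-type groups, with lines joining samples of the same replicate number. Right, *rpn-6.2* in CPM (vertical axis) against the summed CPM of 24 sperm genes (horizontal axis) in the same 16 samples. Replicates 1 and 2 are above replicates 3 and 4 in ratio in each group, and the samples with most sperm-gene RNA have most *rpn-6.2*.

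Across the 16 samples, *rpn-6.2* moved with genes of the germ line and not with the lid. Its Pearson r on log2 CPM was 0.041 to 0.13 with the other 9 lid genes, 0.89 to 0.92 with the 4 germ line genes *glh-1*, *pgl-1*, *pgl-3* and *gld-1*, and 0.63 to 0.95 (median 0.84) with 23 sperm genes, over samples that share groups and replicate numbers. The 10 genes most like it among 8034 with a mean of at least 10 CPM were *asb-1*, *nduf-2.2*, ZK1248.15, *cyb-1*, *cas-2*, T10E9.4, *clec-123*, *cey-2*, T21B10.4 and *puf-8*, with r of 0.98 to 0.96. Of these, *asb-1* encodes a subunit of the mitochondrial ATP synthase, *nduf-2.2* a subunit of respiratory complex I, *cyb-1* a B-type cyclin, and *cey-2* and *puf-8* RNA-binding proteins.

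In contrast, the 10 genes most like *rpn-6.1* were *cdc-48.1* (r = 0.995), the AAA ATPase that extracts ubiquitinated proteins, and 9 proteasome genes: *rpt-2*, *rpn-13*, *pbs-1*, *rpt-1*, *rpt-5*, *rpn-10*, *pbs-5*, *pbs-2* and *pbs-6*, with r of 0.99. With the other lid genes except *rpn-6.2*, r of *rpn-6.1* was 0.96 to 0.99. With *rpn-6.2* it was 0.099 and with the 23 sperm genes 0.053 to 0.48 (median 0.30).

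Per 1000 reads of the 24 sperm genes, *rpn-6.2* had 171, 157, 107 and 80.7 reads in SKN-1t[NNNN] animals, 145, 117, 72.9 and 99.9 in SKN-1t[NDNN] animals, and 66.7, 77.6, 44.3 and 62.8 in SKN-1t[DNDD] replicates 1 to 4, against 100, 122, 77.9 and 89.3 in the wild type. The SKN-1t[DNDD] samples were the lowest of each number. Of 21 sperm genes tested, 1 was higher at an adjusted p below 0.05 in SKN-1t[NNNN] animals, 1 in SKN-1t[NDNN] animals and 6 in SKN-1t[DNDD] animals, where 20.0%, 18.1% and 13.4% of all genes were, with median log2 fold changes of 0.74, 0.32 and 1.32. With the replicate block these counts were 2, 4 and 18, where 20.1%, 18.3% and 24.3% of all genes were higher. In SKN-1t[DNDD] animals with the block, 9 of 10 oocyte genes (0 without it, median 1.81) and 4 of 4 germ line genes (1 without it, median 1.98) were higher as well. In SKN-1t[NNNN] animals with the block, 4 of 4 germ line genes were also higher (0 without it, median 1.62). Of the oocyte genes there, 1 was higher and 2 were lower, where 2270 of 14192 genes were lower. In SKN-1t[NDNN] animals with the block, 0 germ line and 0 oocyte genes were higher. There 2 oocyte genes were lower, where 2055 of 14310 genes were. The part of these germ cell, oocyte and sperm transcripts in the values of *rpn-6.2* was not tested. The same replicates carried most sperm-gene RNA and least lid RNA within SKN-1t[DNDD] animals, where the sperm sum was 339 and 346 CPM in replicates 3 and 4 and 146 and 87.2 CPM in replicates 1 and 2, and this was not tested either.

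Genes of the rest of the proteasome were also up in both strains with an aspartate form, as counts at 1.5-fold and an adjusted p below 0.05, and whether they differed from the lid in size was not tested. Of all genes, 14.4% were up at this cutoff in SKN-1t[NDNN] animals and 11.8% in SKN-1t[DNDD] animals. All 7 genes of the 20S alpha ring and all 7 of the beta ring were up in SKN-1t[NDNN] animals and in SKN-1t[DNDD] animals, with medians of 1.02 and 0.92 in SKN-1t[NDNN] animals and 1.39 and 1.35 in SKN-1t[DNDD] animals. Of the 6 base ATPases 5 were up in SKN-1t[NDNN] animals (median 0.88) and 6 in SKN-1t[DNDD] animals (median 1.22), and of the scaffold and ubiquitin receptor genes *rpn-1*, *rpn-2*, *rpn-10* and *rpn-13* all 4 were up in both (medians 0.78 and 1.18). In SKN-1t[NNNN] animals 0 of these 24 genes were up or down, where 26.6% of all genes were. Their medians there were -0.14, -0.25, -0.13 and -0.090 for the groups of genes in the order above. At an unadjusted p below 0.05, for which the share of all genes was not counted, the edgeR test gave 7 of the 24, all lower. At an adjusted p below 0.05 it gave 3, where 17.1% of all genes were lower. Extremes in SKN-1t[DNDD] were *pas-5* at 1.75 and *pbs-4* at 1.51 among core genes, against *rpt-6* at 0.93 and *rpn-1* at 0.98.

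Further complexes are built of PCI and MPN subunits like the lid, namely the COP9 signalosome, which removes NEDD8 from cullins, and the translation initiation factor eIF3. At 1.5-fold 0 of 6 COP9 genes tested changed in any strain, with medians of 0.018 in SKN-1t[NNNN] animals, 0.014 in SKN-1t[NDNN] animals and -0.014 in SKN-1t[DNDD] animals. Of all genes, 26.6% were up or down at this cutoff in SKN-1t[NNNN] animals. In SKN-1t[NDNN] animals 2066 of 14310 genes were up and 1363 down, and in SKN-1t[DNDD] animals 1706 of 14400 were up and 1554 down. At an unadjusted p below 0.05 the edgeR test gave 0 of the 6 in SKN-1t[NNNN] animals, 2 in SKN-1t[NDNN] animals and 3 in SKN-1t[DNDD] animals. The share of all genes at that unadjusted p was not counted, here or for eIF3, so these counts cannot be set against it. Of 11 eIF3 genes tested 0 changed at 1.5-fold in any strain, and at an unadjusted p below 0.05 edgeR gave 6 in SKN-1t[NNNN] animals, 3 in SKN-1t[NDNN] animals and 8 in SKN-1t[DNDD] animals. At an adjusted p below 0.05 alone, 4 were higher in SKN-1t[NNNN] animals (median 0.17, and 20.0% of all genes were higher) and 4 were lower in SKN-1t[DNDD] animals (median -0.29, lowest *eif-3.J* at -0.56, and 16.4% of all genes were lower). Between SKN-1t[DNDD] animals and SKN-1t[NNNN] animals 8 of the 11 were lower, where 5.95% of all genes were.

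Genes that lie within 500 bases of a lid gene on the same strand differed in whether they moved with it. *mrpl-45*, a mitochondrial ribosomal protein gene 96 bases upstream of *dss-1*, had log2 fold changes of 0.79 in SKN-1t[NDNN] animals and 1.01 in SKN-1t[DNDD] animals (adjusted p = 0.00268 and 0.00115), beside 0.53 and 1.07 for *dss-1*. *fndc-1*, which encodes a mitophagy receptor and lies 121 bases downstream of *rpn-9*, had 1.01 and 1.24 (adjusted p = 0.000274 and 0.000462), beside 0.89 and 1.23 for *rpn-9*. *mrpl-32*, 410 bases downstream of *rpn-3*, had 0.57 in both (adjusted p = 0.00526 and 0.0208), beside 0.82 and 1.07. In SKN-1t[NNNN] these 3 genes had log2 fold changes of 0.18 to 0.26, of which *mrpl-45* passed an adjusted p of 0.05 (0.0437).

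At the *rpn-6.2* locus, where *rpn-6.2* itself was not called, a neighbour was lower in all 3 strains. F59B2.3, 50 bases downstream on the same strand, had log2 fold changes of -0.78 in SKN-1t[NNNN] animals, -0.68 in SKN-1t[NDNN] animals and -0.62 in SKN-1t[DNDD] animals (adjusted p = 0.000231, 0.000740 and 0.00352). F59B2.15, 54 bases upstream, had a mean of 1.17 CPM and did not pass in any strain. No gene within this distance on the same strand was found at *rpn-6.1*.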

How the data were processed

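The deposited table holds raw counts of reads per gene for 16 libraries and a gene length for each gene. The authors prepared stranded mRNA libraries from TRIzol extracts of pelleted animals, sequenced paired reads of 50 bases and aligned them to WBcel235 with STAR 2.7.7a (FastQC 0.11.9), per the labels and the study's methods. The strand setting of the counting is not given in the sources used here. Coordinates are those of the Ensembl annotation of WBcel235.

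Counts were tested with edgeR 4.0.16 in R 4.3.3 (glmQLFit with legacy quasi-dispersions and glmQLFTest) after TMM scaling, leaving out genes that filterByExpr drops at 10 counts, or 15 in total. Each strain was fitted with the wild type alone in 8 samples, and strains were compared with each other in 1 fit of 16 samples. Because CPM values use the scaling of all 16 libraries, ratios of their means can differ from the fold changes of the 8-sample fits. P-values were adjusted over all genes by the Benjamini-Hochberg method. The filter, scaling and cutoffs were those of the study's methods, with cutoffs of 2-fold with an adjusted p below 0.01, and 1.5-fold with an adjusted p below 0.05. Standard errors were derived from the F statistic (absolute log2 fold change over its square root). TPM was computed from the counts and the deposited gene length. The paralog ratio was tested by exact permutation of samples, two-sided, in scipy 1.17.1.

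Samples of a group come from independent populations of animals, as the study's methods state. The 24 pairs of replicates had a chi-square of 16.7 to 162 per degree of freedom, so no 2 libraries agreed within sampling noise and depth limits the precision less than the spread between samples does. Whether replicate numbers pair the samples was checked from the deviations from the group means: same-numbered samples correlated at 0.18 to 0.79 in 5 comparisons and at 0.063 to 0.55 in SKN-1t[NNNN] against the wild type, where replicate 3 fell below 0.1. The numbers were therefore taken to pair the samples in all comparisons but that one. This choice rests on the correlations alone. The best-matching wild-type sample had the same number only for SKN-1t[NDNN] replicate 4, SKN-1t[DNDD] replicates 1 and 3 and SKN-1t[NNNN] replicates 2 and 4. By that measure the comparison left out did not stand apart.

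The lid genes and the lists beside them (other proteasome subunits, COP9, eIF3, cell type markers) were chosen with earlier results of these data known. All 10 lid genes are named, with the 10 genes most correlated with each paralog and the extremes of each list. The edgeR step, tested on simulated data for the 3 wild-type comparisons and for SKN-1t[DNDD] animals against SKN-1t[NNNN] animals, with 200 genes changed 4-fold among 14290 to 14741 genes tested, recovered all 200 with 0 wrong signs and at most 13 false calls. Promoter and protein sequences, reporters and survival assays were not analysed here.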

Additional observations from a re-analysis of the deposited data

Results flagged for a closer look

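Of 44 sets of 4 samples checked for a sample far from the others (the 10 genes and the paralog ratio in 4 groups), 1 stood out, and chance alone gives about 1 in 20. *rpn-6.1* had 167 CPM in SKN-1t[NDNN] replicate 3, against 200 CPM in the nearest of the other samples of that group, a gap of 0.850 of the group's range.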

How the results depend on the processing

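Of 960 fold changes of single lid genes recomputed under an alternative, 929 kept their side of an adjusted p of 0.05, 22 passed it newly and 9 no longer passed. Where either fit passed, 0 changed direction. Some values that passed in neither fit did change direction. In SKN-1t[NNNN] animals against the wild type, *rpn-6.2* ran from -0.057 to 0.71 and *rpn-8* from -0.075 to 0.096. In SKN-1t[NDNN] the count of 2 lid genes up at 2-fold was 1 with RLE scaling, 1 without the filter on low counts, 1 with DESeq2 1.42.0, 0 in a single fit of 16 samples, 0 with replicates 3 and 4 alone (chosen after seeing the data), 8 at the cutoff of 1.5-fold, 3 with the replicate block, and 0 to 3 without any 1 sample. In SKN-1t[DNDD] the count of 7 was 8 with the replicate block, 4 with replicates 3 and 4 alone and 6 to 9 without any 1 sample. For SKN-1t[DNDD] against SKN-1t[NDNN] animals the count of 2 was 7 with the replicate block, 6 with DESeq2, 0 in the 8-sample fit and 1 to 3 without any 1 sample. The cause of these moves was not tested. At an adjusted p of 0.05 and at 1.5-fold the block changed no other call of a lid gene, including SKN-1t[NNNN] against the wild type, where replicate numbers were not taken to pair the samples (0 of 10 with and without it). Scalings moved the median of all genes by over 0.1 on the log2 scale in SKN-1t[NNNN] (0.14, and 0.022 in the single fit) and in SKN-1t[DNDD] (0.043, and 0.14 with upper-quartile scaling), while the lid median minus that of all genes stayed within -0.21 to -0.17 and 0.99 to 1.03. Without any 1 sample, the difference in the paralog ratio from the wild type was -0.75 to -0.16 for SKN-1t[NNNN] animals, 0.34 to 0.77 for SKN-1t[NDNN] animals and 0.24 to 0.81 for SKN-1t[DNDD] animals, and the difference of SKN-1t[DNDD] animals from SKN-1t[NDNN] animals was -0.33 to 0.23. Pseudocounts of 0.5 and 2 moved no ratio across an exact p of 0.05. The spread of *rpn-6.2* between replicate numbers limits what can be said of that gene.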
